A study of Mus musculus with 24 samples.

Results

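Of the 8 genes, Slc25a37 and Slc25a28 carry iron into the mitochondrion, and Nfs1, Iscu, Glrx5 and Isca1 build or pass on iron-sulfur clusters there. Abcb10 stabilises Slc25a37, and Slc25a38 carries glycine for heme synthesis. The probes of all 8 genes were found by the gene name printed in the scanner files, without regard to their values. The genes themselves were chosen with earlier results of these data known. These genes are 8 of the 37008 names on the array. Together they have 15 of the 56605 probes: 4 for Slc25a37, 3 for Isca1, 2 each for Iscu and Nfs1, and 1 for each of the other genes. The tissues were the liver and the bone marrow of Erfe-/- mice, males that lack erythroferrone, and their RNA was measured on 24 single-colour Agilent arrays. Mice sampled at 0 h are labelled as controls, and mice sampled 24 h or 48 h after bleeding from the retro-orbital sinus are labelled phlebotomy, with 4 arrays for each of the 6 groups of tissue and time. The design text gives 4 mice per time. All groups share the Erfe-/- genotype, so no value below compares the knockout with wild type, and the labels give neither strain nor age nor whether a liver and a marrow of the same number came from the same mouse.

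Iron enters the mitochondrial matrix through the mitoferrins. Slc25a37, mitoferrin 1, is the form that developing red cells depend on, and Slc25a28, mitoferrin 2, serves most other cells. Abcb10 is an inner-membrane transporter that stabilises mitoferrin 1 in erythroid cells. In the matrix the cysteine desulfurase Nfs1 supplies sulfur, Iscu is the scaffold on which the cluster forms, and Glrx5 and Isca1 pass clusters on to the proteins that use them. Slc25a38 is a carrier for glycine, which the first step of heme synthesis uses. Maturing erythroblasts use most of the imported iron for heme, so bone marrow after blood loss is a tissue in which this route is heavily used.

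Because several genes have more than 1 probe, the stretch of transcript that each probe reads matters for the results. The array probes are 60 bases long, with positions on mouse assembly mm9 from the scanner files. For Slc25a37, the 2 probes whose bases fall at transcript positions 304 and 815 of NM_026331 are shown whole, and Isca1 at position 385 of NM_026921 likewise. The other lines give the first 30 bases of probes that behaved differently from another probe of the same gene. All are written 5′ to 3′ in lower case, with no bases singled out.
Slc25a37 A_55_P2032445, chr14:69902797-69902856, minus strand: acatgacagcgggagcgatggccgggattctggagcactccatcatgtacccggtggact
Slc25a37 A_52_P507688, chr14:69863195-69863254, minus strand: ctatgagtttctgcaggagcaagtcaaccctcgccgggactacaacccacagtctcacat
Slc25a37 A_51_P343429, chr14:69860020-69860079, minus strand: taagagtggcctagtgttgctttccgaatg
Slc25a37 A_52_P622941, chr14:70080666-70080725, minus strand: tacagtgcttttgctatacataagttttct
Iscu A_55_P2020552, chr5:114228198-114228257, plus strand: ccttatgctggctatctgataggatctatt
Iscu A_55_P2020549, chr5:114226980-114227039, plus strand: tttgctgtctctgagtgtgtctgcagtgcc
Nfs1 A_51_P315646, chr2:155949489-155949548, minus strand: atcgacttcagctgaagaacaccaagttgt
Nfs1 A_52_P252121, chr2:155967752-155967811, minus strand: tttctttcttacagatggaaatagctgttt
Isca1 A_52_P304323, chr13:59858246-59858305, minus strand: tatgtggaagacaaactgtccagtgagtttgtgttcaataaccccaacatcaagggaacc
Isca1 A_55_P2720848, chr13:59861777-59861836, minus strand: cttctgtcttctggtgtgtgtctgaagaca

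The scanner files tie each probe to a transcript. Of the Slc25a37 probes, A_55_P2032445, A_52_P507688 and A_51_P343429 belong to NM_026331 (the last at position 3990), whereas A_52_P622941 belongs to the cDNA AK034948 and starts 177869 bases from A_55_P2032445. For Iscu, A_55_P2020552 belongs to NM_025526 and A_55_P2020549 to ENSMUST00000123616. For Nfs1, A_51_P315646 belongs to NM_010911 and A_52_P252121 to the cDNA AK003786. For Isca1, A_52_P304323 and A_51_P355774 (chr13:59856925-59856984) belong to NM_026921 and A_55_P2720848 to ENSMUST00000160628. The genes with 1 probe are Slc25a28 (A_52_P295533, chr19:43738444-43738503), Abcb10 (A_55_P1963529, chr8:126476407-126476466), Slc25a38 (A_51_P427425, chr9:120032967-120033026) and Glrx5 (A_51_P156631, chr12:106278828-106278887). The place of the probes relative to exons and untranslated regions in an mm9 annotation was not analysed here. Probes differ in how strongly they bind, so levels below are set side by side only for the same probe.

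A level is the log2 processed intensity of the probe minus the array's 75th percentile, so a level of 0 is as bright as that percentile. Over the liver arrays that percentile ran from 354 to 467 intensity units and over the marrow arrays from 694 to 942. The scanner counted 28014 to 34428 probes per array as well above background in liver, and 32009 to 35700 in marrow. Erfe was read by 2 probes, of which A_51_P121179 was above background on 0 of 12 liver and 1 of 12 marrow arrays and A_55_P2156022 on 0 of 12 in both. All 10 hepatocyte markers were above background on every liver array, and all 14 measured erythroid markers on every marrow array. One marrow array stood apart, replicate 2 at 24 h, whose mean log2 level of the 10 hepatocyte markers was 6.28 against -5.60 to -2.20 on the other 11 marrow arrays and 8.93 to 9.25 in liver. Limma counts and calls for marrow at 24 h against 0 h, and for the 24 h test between tissues, are therefore also given without it. This check was added after seeing the data. For marrow at 48 h against 24 h, only the count past the adjusted threshold was repeated without it. Counts of groups that did not overlap were not repeated.

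Before bleeding, mitoferrin 1 and its partner Abcb10 were far more abundant in marrow than in liver. The Slc25a37 probes A_51_P343429 and A_55_P2032445, above background on every array, were 19.5-fold and 15.5-fold higher in marrow, and Abcb10 was 4.08-fold higher. Slc25a28 showed no detectable difference between the tissues. The assembly genes were split: Glrx5 and the NM_026921 probes of Isca1 were higher in marrow, while the NM probes of Nfs1 and Iscu were higher in liver. By limma with Benjamini-Hochberg adjustment over 34402 probes, 13 of the 15 probes passed the threshold of 0.05, 10 higher and 3 lower in marrow. The background is high, since 79.2% of all probes passed, 40.5% higher and 38.7% lower in marrow, so these counts alone say little about the 8 genes. The median difference was 1.51 over the 15 probes and 0.04 over all probes tested. In these whole-tissue samples, fewer cells of a type and less RNA per cell cannot be told apart.

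For mitoferrin 1, A_51_P343429 read 2.41, 2.15, 2.47 and 2.36 on the 4 liver arrays at 0 h and 6.42, 6.59, 6.48 and 7.04 on the 4 marrow arrays. The groups lay far apart, and marrow was 19.5-fold higher (log2 difference 4.29, SE 0.13, adjusted p = 1.06e-16). A_52_P507688 was well above background on 1 of 4 liver arrays at 0 h and on every marrow array, so its liver level rests mostly on dim readings. Taking on each liver array the higher of its reading and the dimmest signal well above background, marrow was 18.8-fold higher (fitted limma adjusted p = 2.88e-13). A_55_P2032445 differed by 3.96 (SE 0.49, adjusted p = 2.38e-07). A_52_P622941, above background on 3 of 4 liver arrays, was 31.8-fold higher by the same measure (fitted difference 5.04, SE 1.48, adjusted p = 0.00409). The direction was the same in all 4 probes that carry this gene name. Of these, A_52_P622941 belongs to another transcript and starts 177869 bases from A_55_P2032445. Whether it reads mitoferrin 1 was not tested. With another background correction (normexp), the log2 difference was smaller, at 2.43 for A_52_P507688 and 3.62 for A_52_P622941. The folds of these probes therefore depend on the background correction and are not lower bounds.

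Mitoferrin 2 gave a different picture. Slc25a28 read 1.77, 1.90, 1.74 and 1.88 in liver and 1.93, 1.78, 1.84 and 1.74 in marrow at 0 h. The values of the tissues interleaved, and the fitted difference was 0.00 (SE 0.08, adjusted p = 0.999). This difference lay between -0.03 and 0.14 over all the alternative processing settings tried.

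Among the companions of heme synthesis, Abcb10 lay at 2.47 to 2.63 on the 4 liver arrays and 4.42 to 4.86 on the 4 marrow arrays at 0 h, a log2 difference of 2.03 (SE 0.13, adjusted p = 6.41e-12). Slc25a38, the glycine carrier, lay at 0.70 to 0.97 in liver and 2.27 to 2.55 in marrow, 2.84-fold higher in marrow (adjusted p = 1.21e-11). Neither gene had a marrow array within the liver range.

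Probes of the same assembly gene did not all point one way. For Nfs1, A_51_P315646 read 3.03 to 3.17 in liver and 1.57 to 1.77 in marrow, a log2 difference of -1.44 (SE 0.08, adjusted p = 8.40e-13), whereas A_52_P252121 differed by -0.17 (adjusted p = 0.292). For the scaffold Iscu, A_55_P2020552 was lower in marrow by 0.79 (4.30 to 4.48 in liver, 3.52 to 3.71 in marrow, fitted difference -0.79, adjusted p = 4.10e-09), and A_55_P2020549 was higher in marrow by 0.41 (adjusted p = 0.00237). For Isca1, the probes A_51_P355774 and A_52_P304323 of NM_026921 were 3.45-fold and 2.88-fold higher in marrow, while A_55_P2720848 was lower by 0.52 (fitted difference -0.52, adjusted p = 0.00106). Glrx5 read 4.24 to 4.57 in liver, 5.16 to 5.59 in marrow, and was 1.92-fold higher in marrow (adjusted p = 7.44e-07). The difference between an NM probe and the other probe of the same gene was not itself tested.

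Normexp correction moved the median difference of all probes from 0.04 to -0.25, and with it 10889 of 28043 called probes were higher in marrow against 13937 of 27255 in the values above. With normexp the signs of the 14 probes other than Slc25a28 were the same, and 2 calls differed. Iscu A_55_P2020549 was 0.18 with an adjusted p of 0.0665, and Nfs1 A_52_P252121 was -0.36 with an adjusted p of 0.00407.

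**Figure D1:**
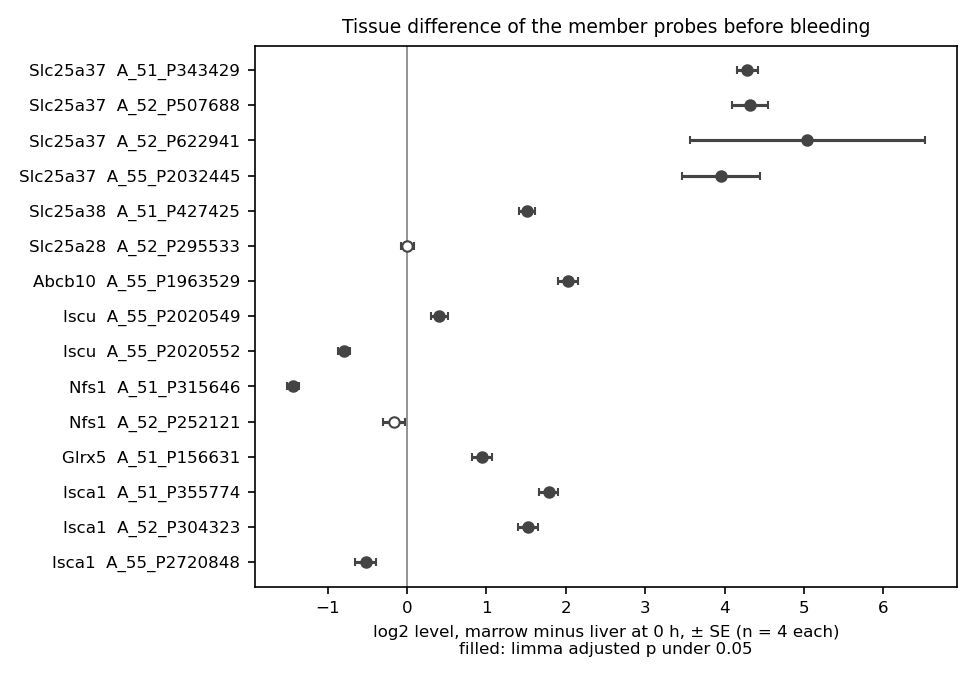
Difference in log2 level between marrow and liver at 0 h for the 15 probes, with bars of 1 SE (4 arrays in each group); filled points passed the limma threshold. Slc25a37 A_51_P343429 lies at 4.29 and A_55_P2032445 at 3.96, while A_52_P507688 and A_52_P622941 were above background on 1 and 3 of 4 liver arrays, so their points rest on dim liver readings. Abcb10 lies at 2.03, Slc25a28 at 0.00 and Nfs1 A_51_P315646 at -1.44.

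In marrow, 48 h after bleeding, mitoferrin 1 rose by its probe A_52_P507688, 1.58-fold over 0 h. No other probe of the 8 genes passed the threshold there, although most lay higher: the fitted difference was above 0 for 12 of 15, as for 51.6% of all marrow probes. Slc25a38, Nfs1 A_52_P252121 and Glrx5 lay higher at 48 h than at 0 h on all 4 arrays without passing. Slc25a28 and Iscu A_55_P2020552 did not share this pattern, at -0.11 and -0.00. At 24 h, 0 of the 15 probes passed.

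The share of all 32197 marrow probes called at 48 h was 1.04% (335 probes), or 0.91% for higher probes, against 1 of 15 here. The median difference was 0.23 over the 15 probes and 0.01 over all probes. At an unadjusted limma p under 0.05, 7 of the 15 probes were higher and 0 lower, and 9.98% of all probes were higher by that measure. The 4 arrays at 48 h lay wholly above the 4 at 0 h for 4 of the 15 probes, where 7.93% of all probes did so. Against 24 h, the 48 h arrays were higher for 13 of 15 probes (59.9% of all marrow probes), with a median of 0.26 (0.04 over all probes), 7 at an unadjusted p under 0.05 (7.95% of all probes, 6.28% higher), 4 with no overlap (3.73% of all probes) and 0 past the adjusted threshold, which 0.00311% of all probes passed. The comparisons of 48 h with 0 h and with 24 h share the arrays at 48 h.

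A_52_P507688 of Slc25a37 read -0.08, 0.06, -0.04 and 0.29 in marrow at 0 h, then 0.18, 0.09, 0.02 and 0.46 at 24 h, and 0.90, 0.80, 0.38 and 0.79 at 48 h. Every array at 48 h was above every array at 0 h, and the 24 h arrays overlapped with both. The rise from 0 h to 48 h was 0.66 (SE 0.14, adjusted p = 0.0472, limma over 12 marrow arrays), and the exact two-sided permutation p over 4 against 4 arrays was 0.0286, the smallest that design can give. Within the 3 slides the rise was 0.91, 0.63 and 0.51. The call was close to the threshold: it was lost with the slide as a block (0.69, adjusted p = 0.0796), with the 2 groups fitted alone (adjusted p = 0.0721), without the filter on dim probes (adjusted p = 0.169), and on leaving out replicate 1, 2 or 3 at 0 h or replicate 1, 2 or 4 at 48 h (0.60 to 0.66, adjusted p = 0.123 to 0.161).

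The bright Slc25a37 probe A_51_P343429 read 6.42, 6.59, 6.48 and 7.04 at 0 h, 6.45, 6.59, 6.18 and 6.63 at 24 h, and 7.10, 7.28, 6.76 and 7.08 at 48 h. Its arrays at 48 h lay above all those at 24 h but not above replicate 4 at 0 h. The difference from 0 h was 0.42 (SE 0.16, adjusted p = 0.237) and from 24 h 0.59 (SE 0.16, adjusted p = 0.483). At 24 h it was -0.17 from 0 h (adjusted p = 0.718). All 3 probes of NM_026331 had a 48 h difference above 0, of which 1 passed.

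Slc25a38 read 2.27, 2.30, 2.27 and 2.55 at 0 h, 2.37, 2.30, 2.23 and 2.65 at 24 h, and 2.85, 2.83, 2.73 and 2.78 at 48 h. The arrays at 48 h lay above all the earlier ones, and the group at 48 h was the tightest (SD 0.054 against 0.14 and 0.19). The difference at 48 h was 0.45 (SE 0.10, adjusted p = 0.0710), and 0.04 at 24 h. Abcb10 read 4.42, 4.48, 4.62 and 4.86 at 0 h and 5.03, 5.14, 4.66 and 4.87 at 48 h, a difference of 0.33 (SE 0.14, adjusted p = 0.285) with overlapping groups. Slc25a28 lay at 1.74 to 1.93 at 0 h, 1.57 to 1.81 at 24 h and 1.63 to 1.82 at 48 h, with differences of -0.17 and -0.11 (adjusted p = 0.451 and 0.541).

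Of the cluster builders, Nfs1 A_52_P252121 read -2.29, -2.54, -2.33 and -2.19 at 0 h, -1.92, -2.10, -2.08 and -1.71 at 24 h, and -1.82, -1.59, -1.74 and -2.07 at 48 h. It was the only probe of the 15 whose 24 h arrays all lay above its 0 h arrays, where 7.58% of all probes did not overlap in either direction and 3.68% lay higher. Its differences were 0.38 at 24 h (SE 0.13, adjusted p = 0.241) and 0.53 at 48 h (SE 0.13, adjusted p = 0.0752). The NM probe A_51_P315646 differed by 0.13 and 0.23 (adjusted p = 0.605 and 0.237). The desulfurase thus lay higher by both probes without passing.

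Iscu, the scaffold, passed the threshold by neither probe. A_55_P2020552 lay at 3.52 to 3.71 at 0 h, 3.40 to 3.56 at 24 h and 3.54 to 3.72 at 48 h, and A_55_P2020549 differed by 0.19 at 48 h (SE 0.09, adjusted p = 0.361). The interval of 1 SE around the 48 h difference of A_55_P2020552, -0.00, was 0.08 to either side.

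Glrx5 read 5.29, 5.16, 5.31 and 5.59 at 0 h, 5.41, 5.36, 5.20 and 5.74 at 24 h, and 5.86, 5.85, 5.64 and 5.63 at 48 h, a difference of 0.41 at 48 h (SE 0.13, adjusted p = 0.158) with no overlap between 0 h and 48 h. Isca1 A_52_P304323 read 1.11, 1.27, 1.31 and 1.75 at 0 h and 1.76, 1.67, 1.58 and 1.61 at 48 h, a difference of 0.30 (SE 0.14, adjusted p = 0.356). The other Isca1 probes, A_51_P355774 and A_55_P2720848, each differed by 0.14 (adjusted p = 0.691 and 0.662). For most of these probes replicate 4 was the highest array at 0 h and replicate 1 or 2 the highest at 48 h.

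**Figure D2:**
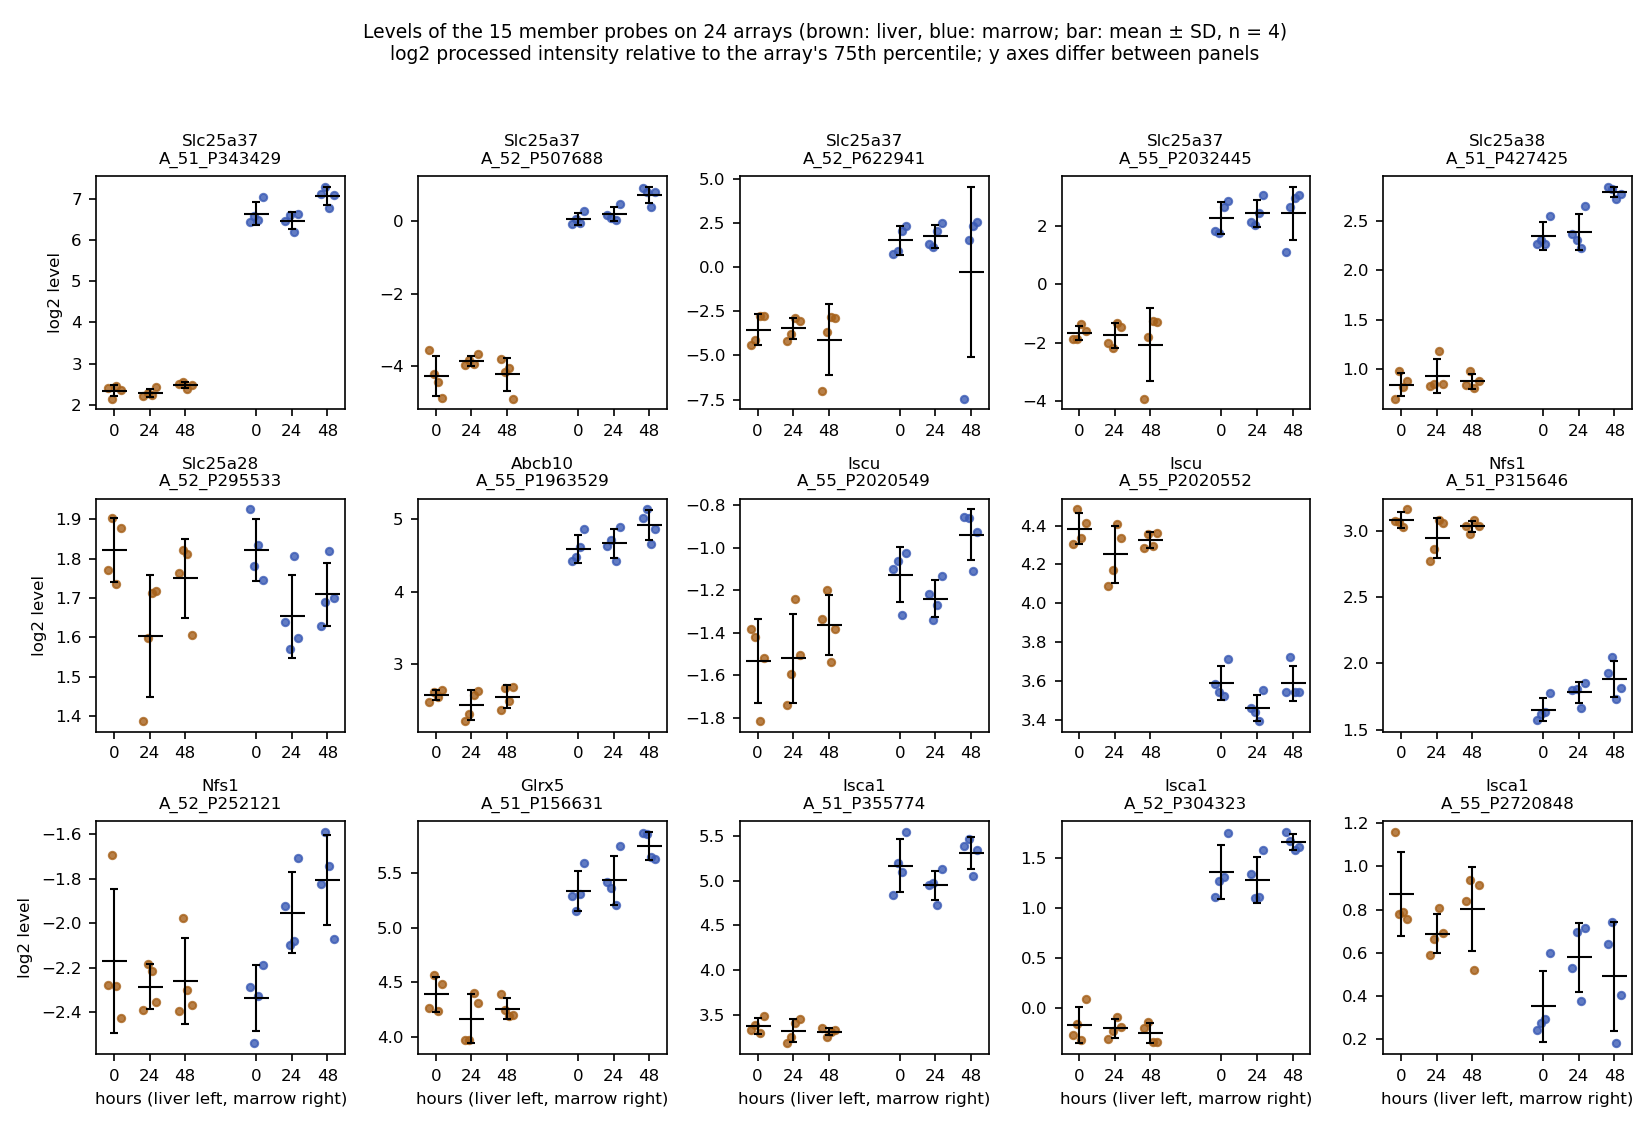
Level of each of the 15 probes on the 24 arrays, as log2 processed intensity relative to the array's 75th percentile, at 0, 24 and 48 h in liver (brown) and marrow (blue); black bars are the mean and SD of 4 arrays, and the y axes differ between panels. Slc25a38 and Slc25a37 A_52_P507688 in marrow lie higher at 48 h than at 0 h on all 4 arrays, and A_52_P622941 spreads over the widest range at 48 h.

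At 24 h in marrow, 0 of 15 probes passed the limma threshold, where 0.817% of all probes did (263), and 1 of 15 had an unadjusted p under 0.05 (11.7% of all probes, 5.18% higher). The median difference was 0.08 over the 15 probes and -0.03 over all probes. Without replicate 2 at 24 h, the array with hepatocyte transcripts, 0 of 15 passed as well, and 1 had an unadjusted p under 0.05. Nfs1 A_52_P252121 was then at 0.43 (adjusted p = 0.241), and Slc25a37 A_51_P343429 at -0.21 (adjusted p = 0.740).

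In liver, none of the 8 genes passed the threshold after bleeding, by the 13 probes tested. Slc25a37 A_52_P507688 and A_52_P622941 were not kept, since no liver group had them above background on all 4 arrays. By limma, 0 of 13 probes passed at 24 h and 0 of 13 at 48 h, as did 0% of all 28784 liver probes in both comparisons. Without adjustment, 1 of 13 had a limma p under 0.05 at 24 h (0 higher and 1 lower) and 0 of 13 at 48 h. Over all liver probes the shares were 10.7% and 6.04%, of which 4.81% and 2.5% were higher. From 24 h to 48 h, 0 of 13 passed, and 1 was higher without adjustment (7.75% of all probes, 3.78% higher). That was Slc25a37 A_51_P343429, at 0.19 (adjusted p = 0.635), whose groups overlapped, as those of all 13 did (3.88% of all probes did not).

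The liver probe with such a p at 24 h was Slc25a28, the mitoferrin of non-erythroid cells. It read 1.77, 1.90, 1.74 and 1.88 at 0 h and 1.39, 1.60, 1.71 and 1.72 at 24 h, with no overlap between the groups (5.53% of all liver probes). The difference was -0.22 (SE 0.09, unadjusted p = 0.0327, adjusted p = 0.437). At 48 h it lay at 1.61 to 1.82, a difference of -0.07. Of the 13 probes, 11 were below their 0 h mean after 24 h and 10 after 48 h, with medians of -0.12 and -0.06, where the medians of all probes were -0.02 and -0.02. Slc25a37 A_51_P343429, bright in liver too, lay at 2.15 to 2.47, 2.20 to 2.44 and 2.39 to 2.55 at the 3 times.

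An interaction term in a fit of both tissues, for 34402 probes, asked if a change after bleeding differed between marrow and liver. None of the 15 probes passed at 24 h or at 48 h, where 0.244% and 0.235% of all probes did (84 and 81). Of all probes, 0.154% at 24 h and 0.212% at 48 h passed with the more positive change in marrow. The more positive change was in liver for 0.0901% and 0.0233%. At an unadjusted p under 0.05, 3 of 15 differed at 24 h and 5 of 15 at 48 h, all with the more positive change in marrow. Of all probes, 5.32% and 6.71% did so in that direction and 10.4% and 10% in either. Without marrow replicate 2 at 24 h, 0 of 15 passed at 24 h and 2 had an unadjusted p under 0.05. At 48 h the 5 were Nfs1 A_52_P252121 (0.62, SE 0.20, adjusted p = 0.255), Glrx5 (0.54, SE 0.18, adjusted p = 0.259), Slc25a38 (0.41, SE 0.14, adjusted p = 0.276), Isca1 A_52_P304323 (0.38, SE 0.18, adjusted p = 0.478) and Nfs1 A_51_P315646 (0.28, SE 0.11, adjusted p = 0.392). The rise of Slc25a37 A_52_P507688 in marrow was not shown to differ from liver (0.62, SE 0.32, adjusted p = 0.539), a tissue in which 6 of 12 arrays had it above background.

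**Figure D3:**
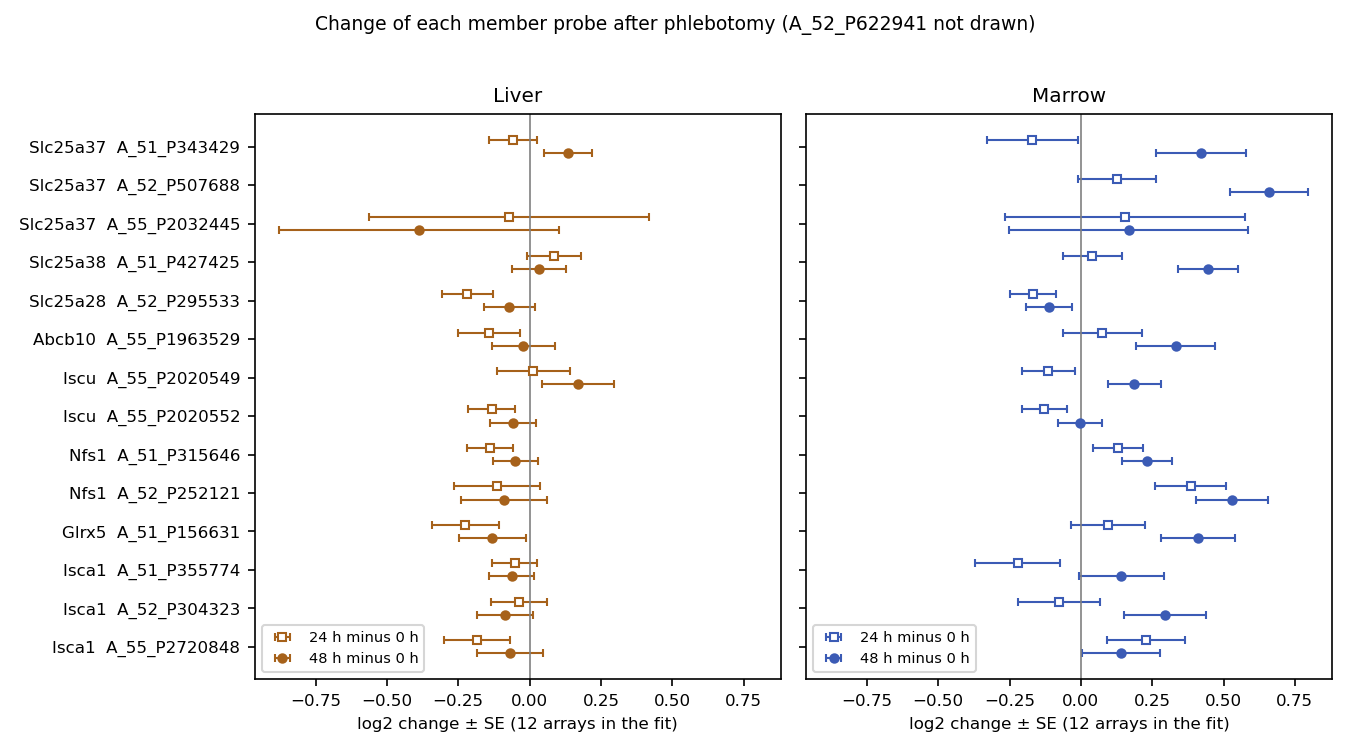
Fitted log2 difference from 0 h at 24 h (open squares) and 48 h (filled circles) for each probe in liver and marrow, with bars of 1 SE from fits over 12 arrays; A_52_P622941, and A_52_P507688 in liver, are not drawn. Most marrow points at 48 h lie right of 0, up to 0.66 for Slc25a37 A_52_P507688, and the liver points lie between -0.39 and 0.17.

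The remaining Slc25a37 probes varied with the replicate number in both tissues. A_52_P622941 was lower on replicates 1 and 2 than on replicates 3 and 4 of every group. In liver it read -7.02 to -3.68 on the arrays numbered 1 and 2 and -3.06 to -2.79 on those numbered 3 and 4. In marrow it read 0.74, 0.90, 2.07 and 2.31 at 0 h, 1.30, 1.11, 2.04 and 2.49 at 24 h, and -7.44, 1.55, 2.33 and 2.52 at 48 h, in order of number. Replicate 1 at 48 h was the lowest array in both tissues and was not above background in marrow.

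A_55_P2032445, a probe of NM_026331, followed it. It read 1.84, 1.78, 2.64 and 2.85 in marrow at 0 h, 2.16, 2.05, 2.45 and 3.07 at 24 h, and 1.11, 2.64, 2.97 and 3.05 at 48 h, and in liver replicate 1 at 48 h was at -3.92 against -2.19 to -1.25 on the other 11 arrays. Over the 12 pairs of a liver and a marrow array of the same time and number, deviations from the group means correlated at Pearson r = 0.950 for A_52_P622941 and 0.898 for A_55_P2032445, as a description, with the same 12 pairs giving -0.27 to 0.57 for the other 13 probes. Without replicate 1 at 48 h, over 11 pairs, the values were 0.941 and 0.753, a check chosen after seeing the data.

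These spreads leave the time differences of both probes undetermined. In marrow at 48 h, A_52_P622941 differed from 0 h by -1.76 (SE 1.77, adjusted p = 0.675), and by 0.63 without replicate 1 at 48 h. A_55_P2032445 differed by 0.17 (SE 0.42, adjusted p = 0.884), and by 0.61 (SE 0.31, adjusted p = 0.409) without that array. In liver, A_55_P2032445 differed at 48 h by -0.39 with all arrays and by 0.23 without replicate 1 at 48 h. Number and slide largely cannot be told apart: slide 1 held only arrays numbered 1 and 2, slide 3 only those numbered 3 and 4, and slide 2 those numbered 2 and 3. On slide 2 A_52_P622941 read 1.11 and 1.55 on the marrow arrays numbered 2 and 2.07 and 2.33 on those numbered 3. Among all probes above background, a Gm16867 probe 2148 bases away on the same strand was the fifth in strength of relation to the deviations of A_52_P622941 over the 24 arrays (r = 0.884), and the first was a Mrps15 probe on chromosome 4 with the opposite sign (r = -0.941). Both were looked for after the values were seen.

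**Figure D4:**
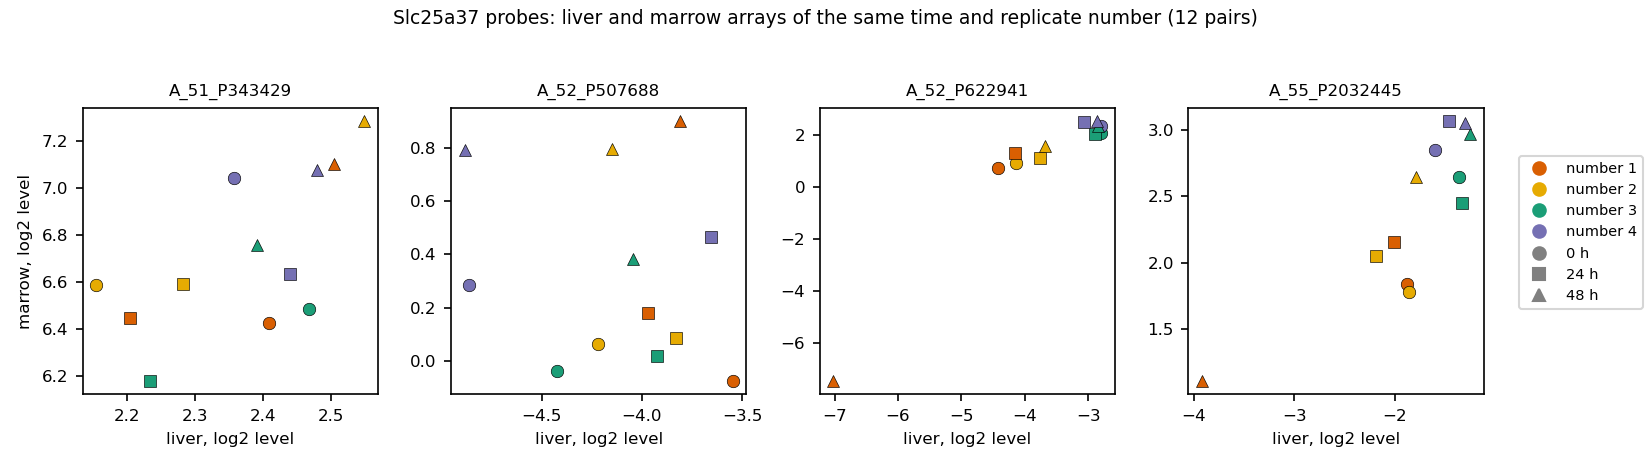
Level of the 4 Slc25a37 probes on the liver array (x axis) and the marrow array (y axis) of the same time and replicate number, as log2 relative to the 75th percentile, with colour for the number and shape for the time. For A_52_P622941 and A_55_P2032445 numbers 1 and 2 lie mostly below numbers 3 and 4 in both tissues, and replicate 1 at 48 h is lowest in both.

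The other genes of the pathway were followed by the brightest probe of each. Of 19 further mitochondrial genes of iron import and cluster assembly measured in marrow, 0 passed by limma at 24 h, 4 having an unadjusted p under 0.05 (3 without replicate 2 at 24 h, and 11.7% of all probes), and 0 passed at 48 h. At 48 h their median difference was 0.17 (0.01 over all probes), with 16 of 19 higher (51.6% of all probes) and 7 higher at an unadjusted p under 0.05 (9.98%). Bola3, a late-acting partner in cluster delivery, differed from liver in its 48 h change by 0.69 (adjusted p = 0.0424), the 1 gene of this list to pass in either test between tissues. That call was lost with the replicate number as a block (adjusted p = 0.172), with the slide as a block (0.0568), and on leaving out 13 of 16 arrays in turn.

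Of 13 genes of the cytosolic assembly and iron-sensing route, 0 passed by limma at either time, with 0 and 2 at an unadjusted p under 0.05 (1 at 24 h without replicate 2 at 24 h). Of 13 mitochondrial proteins that carry clusters, 1 passed at 24 h (0.817% of all probes) and 0 at 48 h (1.04%). At 48 h, 12 of 13 lay higher (51.6% of all probes), 6 of them at an unadjusted p under 0.05 (9.98%). Their median difference was then 0.16 (0.01 over all probes). The gene that passed at 24 h was Cisd1 (mitoNEET), an outer-membrane cluster protein, which rose by 0.62 (SE 0.11, adjusted p = 0.0297). Without replicate 2 at 24 h, the array with hepatocyte transcripts, Cisd1 was at 0.54 with an adjusted p of 0.0609. On leaving out each of 8 arrays in turn, the marrow call of Cisd1 held 2 times (adjusted p = 0.0173 to 0.112). Cisd1 and Ndufs1, a subunit of respiratory complex I, differed between tissues in the 24 h change (0.81 and 0.54, adjusted p = 0.0275 and 0.0422). Without marrow replicate 2 at 24 h the values were 0.72 and 0.54 with adjusted p of 0.0530 and 0.0711, and with the replicate block the adjusted p were 0.164 and 0.195. Ferrochelatase (Fech), which puts iron into heme, differed by 0.35 at 48 h (SE 0.15, adjusted p = 0.299).

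Among the 9 enzymes of heme synthesis, 3 rose at 48 h and 0 fell, with a median of 0.48, where 0.91% of all probes rose, 0.13% fell and the median was 0.01. Among them were Alad, an early enzyme of the route (0.56, SE 0.12, adjusted p = 0.0491), and Cpox, which works later in the mitochondrion (0.68, SE 0.14, adjusted p = 0.0433). On leaving out 1 array at a time, 0 to 4 of the 9 passed. Alad also differed between tissues at 48 h (0.66, adjusted p = 0.0433), a call lost with the replicate block (adjusted p = 0.131), with the slide as a block (0.0666), and on leaving out 14 of 16 arrays in turn. At 24 h 0 of the 9 passed by limma. An unadjusted p under 0.05 was found for 4, of which 3 were higher and 1 lower (11.7% of all probes). Without replicate 2 at 24 h it was found for 3, all higher (10.9% of all probes).

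Erythroid markers also lay higher at 48 h. Of the 14 measured, 14 lay higher at 48 h than at 0 h (51.6% of all probes), 10 at an unadjusted p under 0.05 (9.98%), and 2 passed (0.91%): the transferrin receptor Tfrc, which brings iron into the cell, by 1.02 (SE 0.13, adjusted p = 0.00420) and the membrane protein Rhag by 0.74 (SE 0.15, adjusted p = 0.0414). Tfrc had also risen at 24 h, by 0.79 (SE 0.13, adjusted p = 0.0171), and was at 0.78 (adjusted p = 0.0543) without replicate 2 at 24 h. On leaving out each of 8 arrays in turn, this 24 h call held 2 times (adjusted p = 0.0114 to 0.0665). Tfrc passed at 48 h on leaving out each of the 8 arrays, and 1 to 4 of the 14 markers passed. Between tissues, the globin genes Hba-a1 and Hbb-bt differed in the 48 h change by -0.86 and -1.11 (adjusted p = 0.0374 and 0.0382). From 0 h to 48 h their mean levels went from 7.47 to 8.35 and from 4.90 to 6.02 in liver. In marrow they went from 9.26 to 9.27 and from 9.29 to 9.30. Both calls were lost with the replicate block (adjusted p = 0.132 and 0.131). With the slide as a block the adjusted p were 0.0470 and 0.0571. On leaving out each of 16 arrays in turn, Hba-a1 passed 3 times and Hbb-bt 4 times. The mean log2 level of the 14 markers was 4.08 to 4.49 at 0 h, 4.22 to 4.60 at 24 h and 4.49 to 4.88 at 48 h. At 48 h, 0 of 10 B cell markers and 0 of 8 monocyte markers tested lay higher than at 0 h, against 51.6% of all probes. The same held for 0 of 6 early and 2 of 10 late neutrophil markers, and for 6 of 7 megakaryocyte markers. Of these markers 0 passed, where 0.91% of all probes passed as higher and 0.13% as lower. The part of these markers in the differences of the 8 genes was not tested.

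In liver 0 genes of these lists passed by limma at any time. At 48 h, 3 of the further assembly genes, 4 of the cluster-carrying proteins and 1 heme enzyme had an unadjusted p under 0.05, all lower than at 0 h. By the same measure 3 erythroid markers were higher. Of all liver probes, 6.04% had such a p, and 2.5% were higher. The cluster-carrying proteins lay higher than at 0 h for 0 of 13, against 44.7% of all liver probes. At 0 h, 14 of the 19 further mitochondrial assembly genes and 12 of the 13 cluster-carrying proteins were lower in marrow than in liver, whereas 8 of the 9 heme enzymes were higher, beside 38.7% and 40.5% of all probes.

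**Figure D5:**
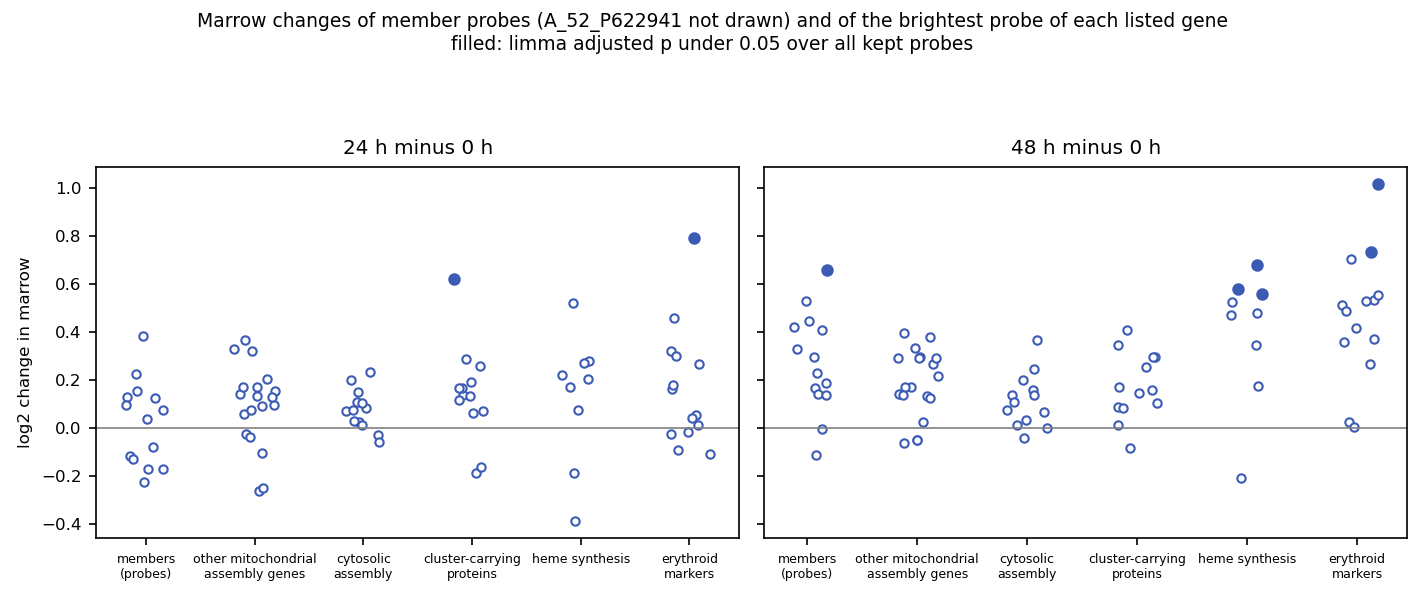
Fitted log2 difference from 0 h in marrow at 24 h and 48 h, for the member probes (without A_52_P622941) and for the brightest probe of each listed gene; filled points passed the limma threshold over all kept probes. At 48 h the filled points are 1 member probe, 3 heme enzymes and 2 erythroid markers, with Tfrc highest at 1.02.

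Across the 12 marrow arrays the levels of several member probes went together, which is given as a description, since the arrays share their times and scaling. Slc25a37 A_52_P507688 and Slc25a38 had r = 0.957, Slc25a38 and Glrx5 0.948, and Abcb10 and Nfs1 A_51_P315646 0.931. Taken as deviations from the group means, these were 0.852, 0.927 and 0.946. Slc25a37 A_51_P343429 went with Isca1 A_51_P355774 (0.919, and 0.948 within groups).

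By the same measure over 12 arrays, the named genes most like each member were found among all kept marrow probes. Slc25a38 was most like Trim10 (r = 0.985), with the red-cell anion exchanger Slc4a1 also among its 3 closest, and Isca1 A_51_P355774 was most like Sppl2b (0.985), the membrane skeleton gene Epb41 and Tent5c. Abcb10 was most like Fbxo7 (0.980), Pigq and Dennd2c. The pattern of Nfs1 A_51_P315646 was closest to Uros (0.975), the uroporphyrinogen synthase of the heme route, then Rgs12 and Ammecr1. Slc25a37 A_51_P343429 was closest to the ubiquitin ligase gene Ube2o (0.970), Atg4a and Bsdc1, and Glrx5 to Tspo2 (0.968), Prdx2 and Ube2c. Slc25a28 was closest to Vps37b (0.957), Rbp3 and Uvrag, and Iscu A_55_P2020552 to Zfp608 (0.927), Cd244a and Wdr62.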

How the data were processed

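RNA from 24 samples was hybridised to 1 single-colour array each. Per the file headers, the authors' scanner software (Agilent Feature Extraction 10.10.1.1, per the submitters' processing notes) gave each spot a background-subtracted processed intensity, with no normalisation across arrays. A table of log2 values was also deposited, equal in distribution within each tissue, with column medians of 7.74 in liver and 8.31 in marrow. The submitters' processing tools also include limma, with no version given. How the table was made is otherwise not given in the sources used here. The table followed the order of the scanner's median signal. It served as an alternative for changes over time, including their difference between tissues, but not for levels of marrow against liver.

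The 3671 control spots and 5070 outlier spot values were left out, 0 spots were saturated, and spots of a probe were averaged on the log2 scale after subtracting the array's 75th percentile. A probe was kept if some group in the fit had it well above background on each of its 4 arrays. Every kept probe was tested on its own with limma 3.58.1 in R 4.3.3 (lmFit and eBayes, two-sided, Benjamini-Hochberg over all kept probes, threshold 0.05), per tissue over 12 arrays, or over 24 arrays between tissues. Exact permutation tests of 4 against 4 arrays cannot go below 0.0286. On data simulated for marrow at 48 h against 0 h, the fit was checked before use. The number of arrays limits the precision.

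Groups and numbers came from the sample titles. The members, the pathway and marker lists and the tests were chosen with earlier results of these data known. All probes of the 8 genes are named. Of the other pathway genes, those past the threshold are named, plus Fech and Tfrc whatever their result, and for likeness the 3 closest named genes. Some genes that this rule covers are not reported here. Names of other genes were updated by accession or symbol. Alternatives covered scaling, background, the authors' values, the filter, probes per gene, slide, replicate number, variance model, weights, arrays fitted and leaving out arrays.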

Additional observations from a re-analysis of the deposited data

Results flagged for a closer look

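In each group of 4 arrays of a probe, the gap of the most distant array to its neighbour was set against the group's range. It passed Dixon's critical value for 4 values in 6 of 90 groups (6.67%), and chance alone gives about 1 in 20.

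Slc25a37 A_52_P622941 in marrow at 48 h read -7.44 on replicate 1 against 1.55 to 2.52 on the others. Slc25a38 read 1.18 on replicate 3 in liver at 24 h against 0.83 to 0.85, and 2.55 on replicate 4 in marrow at 0 h against 2.27 to 2.30. Iscu A_55_P2020552 in marrow at 48 h read 3.72 on replicate 2 against 3.54 on the other arrays. Isca1 A_55_P2720848 read 1.16 on replicate 1 in liver at 0 h against 0.76 to 0.79, and 0.60 on replicate 4 in marrow at 0 h against 0.24 to 0.29.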

How the results depend on the processing

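The count of member probes past the threshold was 0 under every alternative in all 3 liver comparisons, in marrow at 24 h against 0 h and at 48 h against 24 h, and in both tests between tissues. In marrow at 48 h against 0 h it was 1, and became 2 with the authors' values, with trend and robust variance, and with array weights, and 0 without the filter on dim probes, with the brightest probe per gene, with the slide as a block, and with only the 2 groups fitted. Leaving out 1 array gave 0 to 2. The probe gained was Nfs1 A_52_P252121 with the authors' values (adjusted p = 0.0487), and Slc25a38 with weights (0.0354), with trend and robust variance (0.0378) and without replicate 4 at 0 h (0.0488). At 0 h, marrow against liver gave 7 of 8 with the brightest probe per gene, in place of 13 of 15. Of 2739 probe values under the alternatives, 10 lost the threshold, 5 passed it, and 0 called values changed sign. Among values that passed under neither setting, 100 changed sign, 8 of them by more than their SE. The cause was not tested.

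Counts over all probes moved more. In marrow at 48 h, 335 became 92 without the filter, 129 with the slide as a block, 537 with trend and robust variance and 929 with weights (116 to 323 leaving out 1 array). At 24 h, 263 became 84, 214, 308 and 446 (89 to 195), and 150 with only 2 groups fitted. In the tests between tissues, 84 at 24 h and 81 at 48 h ranged over 11 to 164 and 8 to 211 (26 to 151 and 27 to 99 leaving out 1 array).

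Taken over all kept probes, samples of the same number at different times showed little shared deviation (r = -0.157 to 0.118 in liver, -0.217 to 0.195 in marrow, 12 pairs each). Single probes could still vary with the number, as Slc25a37 A_52_P622941 and A_55_P2032445 did. With the replicate block, the member count in marrow at 48 h was 1 and all other time comparisons gave 0, while 139 of all probes were called at 48 h and 160 at 24 h. Liver and marrow of the same time and number had r = 0.0123 to 0.140, and 11 of 12 matched their own number best. That is a hint from the data and not from the design. Each such pair also lay on the same slide, and a shared mouse was not told apart from a shared slide. With liver and marrow of the same time and number as a block, the tests between tissues called 11 and 8 of all probes, 0 of them members. The same block gave 13 members at 0 h.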
